A study of Mus musculus with 6 samples.

Results

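Matrix proteases and their tissue inhibitors were followed across 6 Affymetrix arrays of demyelinated mouse brain, 1 array per dissected lesion. Their genes were chosen by symbol: the matrix metalloproteinases (Mmp), the ADAM proteases (Adam), the secreted ADAMTS proteases (Adamts) and the tissue inhibitors of metalloproteinases (Timp). The rule gave 76 of the 22180 genes that had a probe set with 1 gene symbol, namely 22 Mmp, 32 Adam, 18 Adamts and 4 Timp genes. Where a gene had several probe sets, the one with the highest mean was used. Adam34, Adamts2 and Mmp15 were not analysed here.

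All lesions were made with LPC (lysophosphatidylcholine, a lipid that strips myelin locally) in mice aged 5 to 6 weeks. Mice of both genotypes then received CID, the compound that triggers the transgene, 48 hours later, and tissue was taken 7 days after the lesion. The wild type group (3 lesions) and the transgenic group (3 lesions) therefore shared lesion, compound and timing and differed in genotype. The transgene lets GFAP-positive astrocytes that do not divide be removed by apoptosis, which leaves dividing GFAP-positive cells outside the design. No promoter of the transgene, strain or number of animals is stated in the labels, so the p-values measure the spread between these 6 samples, which may be partly technical.

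These enzymes cut proteins of the extracellular matrix and of the cell surface with a zinc ion at the active site. Most are made as inactive precursors whose prodomain has to be removed. Mmp enzymes degrade collagens, laminin and elastin, many ADAM enzymes release the outer part of membrane proteins, and several ADAMTS enzymes cut the chondroitin sulphate proteoglycans that accumulate in brain lesions. TIMP proteins bind in the active site and block it. In the brain the families are known from work on inflammation, barrier leakage, scar matrix and myelin.

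Values below are log2 intensities, listed in the order of replicates 1, 2 and 3 of a group, and differences are transgenic minus wild type, so that a negative difference means a lower level in transgenic lesions. A probe set's level depends on its probes as well as on the transcript, so levels are compared between arrays and not between genes. The array medians lay between 5.34 and 5.59. Of the 76 genes, 19 were above the array median on all 6 arrays, 19 on some arrays and 38 on none. Gfap, which defines the targeted cells, stood at 9.83, 9.18 and 9.09 in wild type lesions against 8.91, 8.82 and 9.24 in transgenic ones, so the groups overlapped. Markers of sex and of brain region were unevenly spread over the arrays. Y-linked probe sets averaged 5.99 and 6.32 in transgenic replicates 1 and 3, while the remaining 4 arrays ran from 2.78 to 3.39. The 4 measured striatal genes averaged 7.87 and 8.48 in wild type replicates 2 and 3, against 5.95 to 6.31 elsewhere. In a dissected lesion, fewer cells of a type and less RNA per cell cannot be told apart.

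No matrix protease or inhibitor gene passed an adjusted p of 0.05 (limma, Benjamini-Hochberg over 41345 probe sets), where 0 probe sets passed in all. The smallest adjusted p among the members was 0.488. At an unadjusted p under 0.05, 2 of the 76 genes differed (2.63%), against 8.87% of all probe sets. Both, Adamts4 and Adam17, were lower in transgenic lesions, where 4.05% of all probe sets were lower at that level. The split by direction changed with array scaling. After quantile normalization 3 members were higher (Adam18, Adam19 and Mmp11) and 2 lower, together 6.58% against 9.15% of all probe sets. After median centring 2 were higher (Adam18 and Mmp11) and 1 lower (Adamts4), together 3.95% against 8.32%. The groups did not overlap in 13 of the 76 genes (17.1%), 6 higher and 7 lower, against 16.1% of all probe sets, 8.54% higher and 7.6% lower. Over all 22180 genes with 1 probe set each, as the members have, the shares were 6.98% and 15.4%. The family's share was thus below the background at the unadjusted p and near it for groups that did not overlap. Without limma's variance moderation the share at the unadjusted p was 9.21% (7 of 76), against 7.76% of all probe sets.

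The subfamilies differed in how many means lay higher or lower, a contrast that was not tested. Of the 22 Mmp genes, 18 had a lower transgenic mean (median difference -0.12), and 12 of the 18 Adamts genes were lower, with a median of -0.09. Of the 32 Adam genes, 23 had a higher mean, with a median of 0.06. The 4 Timp genes split evenly, with a median of 0.09. Over all probe sets the median was -0.01, and 21136 of 41345 had a lower mean. After centring each array on its median, which moves the median over all probe sets to 0.05, 15 Mmp genes were lower and 24 Adam genes were higher. The Mmp median was then -0.06 and the Timp median 0.14. In the uncentred values, the Timp median was -0.02 without wild type replicate 3. For single members, the median standard error was 0.17 and the 95% interval reached a median of 0.39 to either side.

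**Figure D1:**
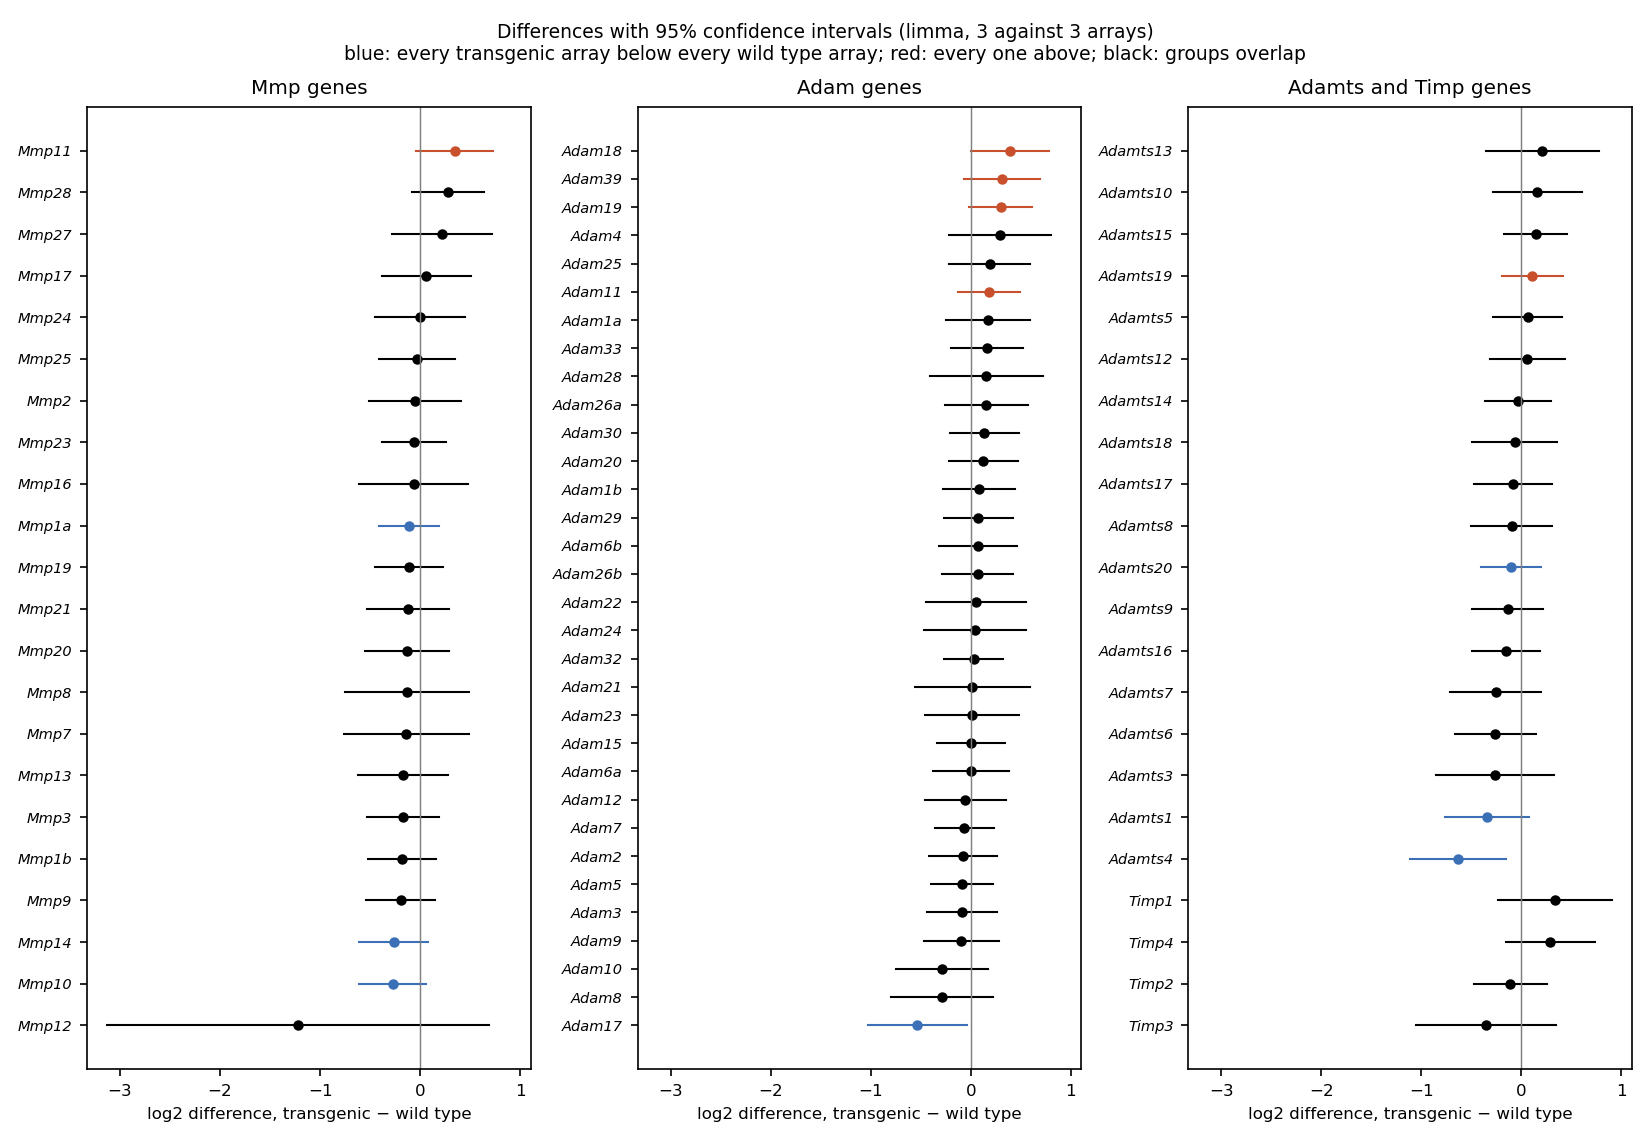
Differences (log2, transgenic minus wild type) of the 76 genes with 95% confidence intervals from limma, by subfamily and sorted by size. Intervals of Adamts4 and Adam17 lie below 0, all others include 0, and coloured points mark the 13 genes whose groups did not overlap.

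The secreted ADAMTS enzymes include the aggrecanases, which cut aggrecan, brevican, neurocan and versican. Adamts4, an aggrecanase that is also a marker of oligodendrocytes, stood at 7.10, 6.83 and 6.85 in the wild type. The transgenic values were 5.93, 6.34 and 6.61. All 3 transgenic values were below all 3 of the wild type. The means were 6.93 ± 0.15 and 6.29 ± 0.34 (SD, n = 3), a 1.55-fold difference (-0.63, SE 0.20, 95% interval -1.11 to -0.16, limma adjusted p 0.488). The unadjusted p in limma was 0.0158, and it was 0.0596 without wild type replicate 1 (difference -0.55) and 0.0818 with sex as a covariate (-0.59).

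Markers of myelinating oligodendrocytes went the same way. All 7 listed markers (Mag, Mog, Mbp, Mobp, Ermn, Myrf and Cldn11) were lower on every transgenic array, each with an unadjusted p under 0.05 and none past the adjusted threshold in limma. Their summed level, as a mean per array, ran from 9.76 to 10.24 in the wild type and from 8.67 to 9.28 in the transgenic group. The median of their differences was -0.91, against -0.63 for Adamts4. The array lowest in these markers, transgenic replicate 1, was also lowest in Adamts4, and the array highest in them, wild type replicate 1, was highest in Adamts4. The 3 precursor markers and the 6 astrocyte markers were also highest and lowest on these same 2 arrays. Pearson's r with Adamts4 over the 6 arrays was 0.925 for the oligodendrocyte list, 0.868 for precursors and 0.894 for astrocytes. The oligodendrocyte markers were known to be lower from earlier results of the same arrays. The part of any of these cell types in the Adamts4 difference was not tested.

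**Figure D2:**
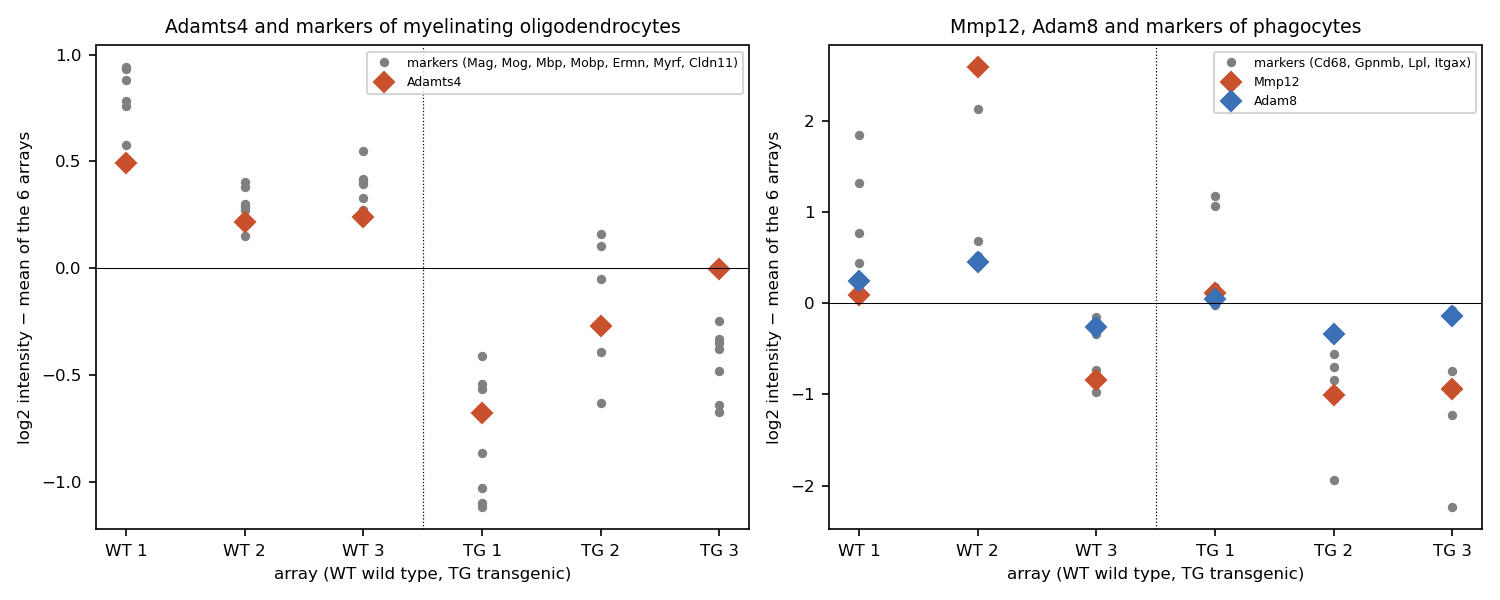
Deviation of the log2 intensity from the mean of the 6 arrays for Adamts4 with 7 oligodendrocyte markers (left) and for Mmp12 and Adam8 with 4 phagocyte markers (right), 1 column of points per array. Adamts4 and its markers are above 0 on all wild type arrays, while the highest Mmp12 and Gpnmb values are both on wild type replicate 2.

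Adamts1, an aggrecanase induced by inflammation, stood at 7.04, 6.48 and 6.62 in the wild type against 6.36, 6.41 and 6.33 in transgenic lesions. The transgenic arrays again lay below all wild type arrays, but by a gap smaller than the SD of the wild type group, 0.29. The difference was -0.35 (SE 0.18, limma adjusted p 0.630). It was -0.18 without wild type replicate 1, and the groups overlapped after median centring. The other listed aggrecanases, Adamts5 and Adamts9, differed by 0.06 (SE 0.15) and -0.14 (SE 0.15), with overlapping groups. Adamts5, the main aggrecanase of cartilage, was below the array median on every array.

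Of the remaining Adamts genes, Adamts6 and Adamts7 each differed by -0.26, with standard errors of 0.17 and 0.19. Adamts6 was -0.15 without wild type replicate 3 and -0.16 without transgenic replicate 1. Adamts7, an enzyme that cuts the matrix protein COMP, was uniform in wild type at 5.74, 5.71 and 5.79 and ran from 5.17 to 5.84 in transgenic lesions. Its difference was -0.09 without transgenic replicate 2 and -0.43 (unadjusted p 0.0270 in limma) without transgenic replicate 1, the highest array, and -0.58 (0.0290) with sex as a covariate. Adamts20 lay lower in every transgenic array by a difference of -0.11 and Adamts19 higher by 0.11, both below the array median on all arrays. In both the groups overlapped after quantile normalization and after median centring. Adamts19 and Adamts20 are named because their groups did not overlap, a choice made after their values were seen. Of the 18 Adamts genes, Adamts4 alone had an unadjusted p under 0.05.

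ADAM proteases with an active site shed growth factors, cytokines and receptors from the cell surface. Adam17, the enzyme that releases tumour necrosis factor and ligands of the EGF receptor, stood at 7.16, 6.61 and 6.43 in the wild type. The transgenic values were 6.08, 6.23 and 6.28. The groups did not overlap, and wild type replicate 1 was well above the other arrays. The means were 6.73 ± 0.38 and 6.20 ± 0.11 (SD, n = 3), a 1.45-fold difference (-0.54, SE 0.21, 95% interval -1.03 to -0.04, limma adjusted p 0.538). The unadjusted p was 0.0378 in limma. It was 0.116 without wild type replicate 1, where the difference was -0.32, and 0.0548 to 0.0926 without wild type replicate 2 or any 1 transgenic array. Without wild type replicate 3 it was 0.0200. After median centring it was no longer under 0.05.

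Several marker lists were highest on wild type replicate 1, as Adam17 was. The 7 oligodendrocyte markers were at 10.24 there, the 3 precursor markers at 7.31 and the 6 astrocyte markers at 8.77, and all 3 lists were lowest on transgenic replicate 1, as Adam17 was. The 5 microglial markers averaged 8.89 on wild type replicate 1 and ran from 7.71 to 7.99 on the remaining 5 arrays, and 4 of the 5 had lower means in transgenic lesions. With sex as a covariate, where transgenic replicate 2 alone stands for transgenic lesions without a male signal, the Adam17 difference was -0.50 (unadjusted p 0.142 in limma). The part of these cell types was not tested.

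Adam10, the alpha-secretase of the amyloid precursor protein and a protease of Notch and N-cadherin, stood at 8.90, 8.60 and 8.43 in the wild type against 8.06, 8.55 and 8.46 in transgenic lesions. The low value of transgenic replicate 1 was the lowest of the 6. The difference was -0.29 (SE 0.20) with it and -0.14 without it. Adam8, found on activated leukocytes and microglia, differed by -0.29 (SE 0.22). Its difference was -0.13 without wild type replicate 2, -0.49 (unadjusted p 0.0450 in limma) without wild type replicate 3 and -0.19 without transgenic replicate 2. Its highest values were 5.65 and 5.44 in wild type replicates 2 and 1, followed by 5.25 in transgenic replicate 1. The phagocyte markers (Cd68, Gpnmb, Lpl and Itgax) were also highest on these 3 arrays, at 8.34, 8.50 and 8.01 against 6.34 to 6.86 elsewhere.

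For the other listed ADAM proteases the groups overlapped, except for Adam19. Adam9 differed by -0.10 (95% interval -0.47 to 0.28), Adam12 by -0.05 (-0.46 to 0.35), Adam15 by 0.01 (-0.33 to 0.34) and Adam33 by 0.16 (-0.20 to 0.52). Adam19, a protease of neuregulins, lay higher in every transgenic array, at 5.83, 5.90 and 5.91 against 5.68, 5.47 and 5.58 (difference 0.30, SE 0.14, limma adjusted p 0.586). Its other probe set differed by -0.08, so the direction depends on the probe set. All 6 genes with 2 probe sets (Adam15, Adam19, Adamts8, Adamts14, Mmp7 and Mmp11) had differences of opposite sign in them.

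Adam11, Adam22 and Adam23 lack a working active site and are made by neurons, and Adam22 and Adam23 are receptors for the secreted LGI proteins at synapses. Adam11 lay higher in every transgenic array, at 7.12, 6.99 and 7.03 against 6.91, 6.80 and 6.90. Its difference of 0.18 (SE 0.13) was small, and the limma adjusted p was 0.747. Adam22 differed by 0.05 (95% interval -0.44 to 0.55) and Adam23 by 0.01 (-0.46 to 0.48), and both overlapped. Among the LGI ligands, Lgi1 was at 8.57, 8.69 and 8.71 in wild type and 8.88, 9.18 and 9.09 in transgenic lesions, a difference of 0.39 (SE 0.15, limma adjusted p 0.521). The 4 measured cortical neuron markers also had higher means, averaging 7.61 to 7.63 per wild type array and 7.73 to 8.48 per transgenic array. Of these, only Lamp5 (difference 1.05) separated the groups, and Tbr1 (0.38), Neurod6 (0.34) and Cux2 (0.22) overlapped. The 2 interneuron markers, Vip (difference 1.22, limma adjusted p 0.213) and Pvalb (1.41, 0.261), were higher on every transgenic array. The part of these neuron types in the Adam11 and Lgi1 differences was not tested.

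Many of the remaining ADAM genes are known from testis. Of 20 Adam genes below the array median on all arrays, 16 had a higher mean in transgenic lesions, with a median over the 20 of 0.08 and differences of all 20 from -0.09 to 0.31. Adam18 and Adam39, both on chromosome 8, lay higher in every transgenic array, by 0.39 (SE 0.17) and 0.31 (SE 0.16). Adam18 was at 5.42, 5.44 and 5.05 in the wild type against 5.80, 5.74 and 5.54 in transgenic lesions, and Adam39 ran from 3.09 to 3.56 and from 3.59 to 3.67. Several of these genes have close copies (Adam1a and Adam1b, Adam6a and Adam6b, Adam26a and Adam26b) whose transcripts can share probes, so their values are uncertain. The groups of Adam39 overlapped after quantile normalization and after median centring. With sex as a covariate the differences were 0.44 (unadjusted p 0.105 in limma) and 0.28 (0.255).

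The membrane-type Mmp enzymes sit on the cell surface. Mmp14, the membrane enzyme that activates Mmp2, stood at 6.71, 6.87 and 6.83 in the wild type against 6.38, 6.54 and 6.69 in transgenic lesions. The groups did not overlap, though transgenic replicate 3 and wild type replicate 1 nearly met. The difference was -0.26 (SE 0.15, 95% interval -0.61 to 0.08, limma adjusted p 0.655), and the groups overlapped after median centring. Mmp16, Mmp17, Mmp24 and Mmp25 differed by -0.07, 0.06, -0.004 and -0.03. Their 95% intervals reached no further than -0.61 below and 0.51 above 0.

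The gelatinases Mmp2 and Mmp9 cut denatured collagen and the collagen of the basement membrane. Mmp2 stood at 5.95, 5.94 and 5.52 in the wild type against 6.02, 5.52 and 5.72 in transgenic lesions, a difference of -0.05 (95% interval -0.51 to 0.41). Mmp9, carried by neutrophils and made by several brain cells in injury, stood at 5.37, 5.35 and 5.44 against 5.38, 5.10 and 5.10. Transgenic replicates 2 and 3 were below all wild type arrays and transgenic replicate 1 was among them (difference -0.20, SE 0.15). Mmp9 was below the array median on every array. The 7 neutrophil markers, of which 2 had higher and 5 lower means, averaged 4.48 to 4.67 per wild type array and 4.25 to 4.82 per transgenic array. The part of neutrophils in the Mmp9 values was not tested.

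**Figure D3:**
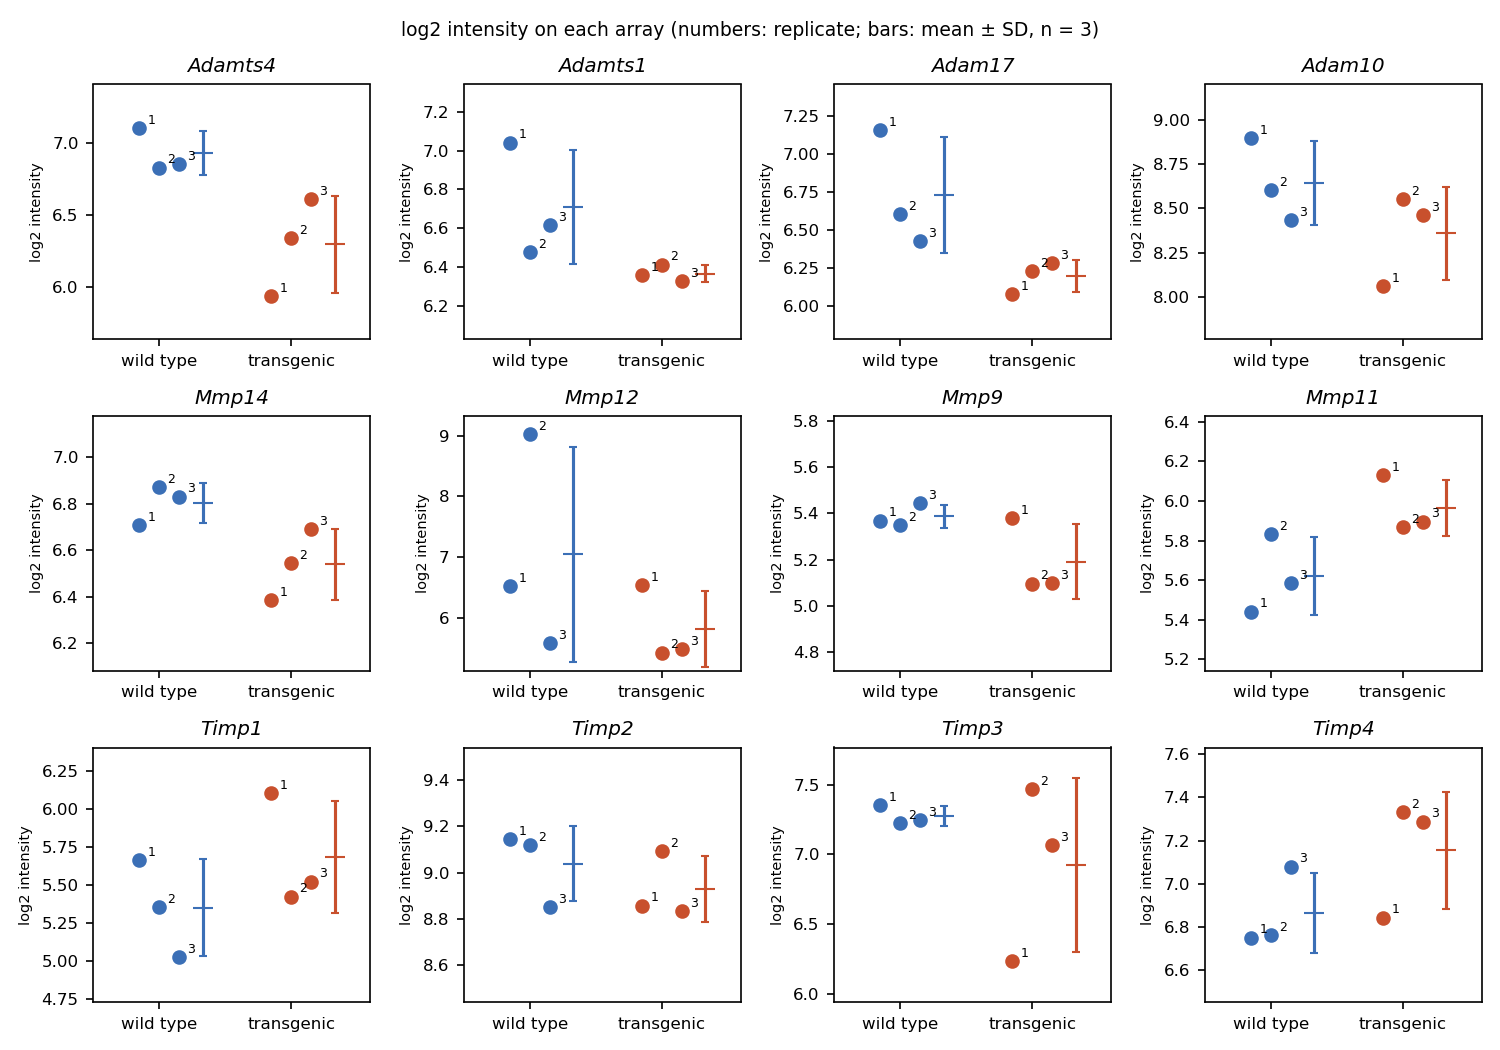
log2 intensity of 12 genes on each array, with the replicate number beside each point and the mean ± SD (n = 3) of each group. Adamts4, Adamts1, Adam17 and Mmp14 separate the groups downwards and Mmp11 upwards, whereas Mmp12 and Timp3 each depart on a single array.

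Several Mmp genes, among them collagenases, the stromelysins Mmp3 and Mmp10 and the macrophage elastase, lie together on chromosome 9. In the RefSeq annotation the 10 genes run in the order Mmp13, Mmp12, Mmp1b, Mmp3, Mmp1a, Mmp10, Mmp8, Mmp27, Mmp20 and Mmp7, with 0 other protein-coding genes between the first and the last. Of these, 9 had a lower mean in transgenic lesions and 1, Mmp27, a higher one, with a median of -0.15. Of the 10 genes, 8 were below the array median on all arrays, so most of these small differences were measured near the lower end of the signal.

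Mmp12, the elastase of macrophages, varied most. It stood at 6.53, 9.02 and 5.59 in the wild type, against 6.55, 5.43 and 5.50 in transgenic lesions. Wild type replicate 2 was far above every other array, and the groups overlapped. The difference of -1.22 was the largest of the 76 genes, but its standard error of 0.81 was also the largest (95% interval -3.13 to 0.69, limma adjusted p 0.715). Without wild type replicate 2 it was -0.23. Mmp1b, Mmp3, Mmp8 and Mmp20 also had their highest value on that array, but by narrow margins: Mmp3 was at 4.04 there and at 3.60 to 3.93 elsewhere, and Mmp8 at 5.02 against 4.14 to 5.00. The other 5 genes of the cluster peaked on other arrays.

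The arrays with the higher Mmp12 values were those rich in phagocyte markers. Gpnmb, a marker of lipid-laden phagocytes, stood at 10.38, 10.66 and 7.55 in the wild type against 9.71, 6.59 and 6.29 in transgenic lesions. For Cd68, found in their lysosomes, the values were 10.86, 9.95 and 8.80 against 10.60, 8.69 and 8.31. Both placed wild type replicates 1 and 2 and transgenic replicate 1 above the other 3 arrays, as Mmp12 did, but neither set wild type replicate 2 apart from wild type replicate 1 to the degree seen in Mmp12. What these cells contribute to the Mmp12 and Adam8 values was not tested.

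**Figure D4:**
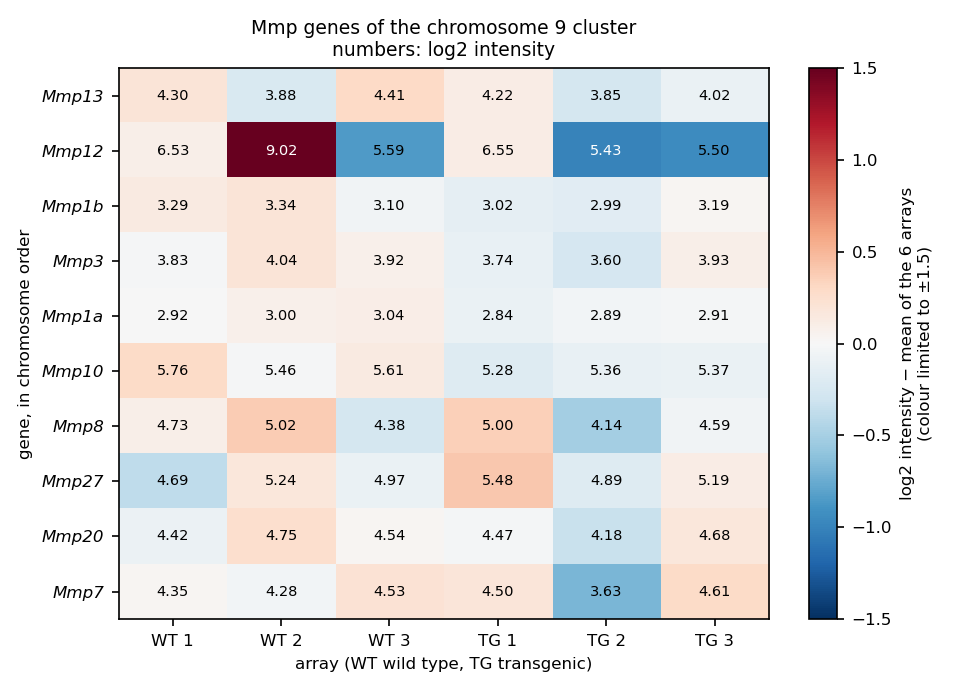
log2 intensity (numbers) of the 10 Mmp genes of chromosome 9 in gene order (rows) on the 6 arrays (columns), coloured by the deviation from each gene's mean. The darkest red cell is Mmp12 on wild type replicate 2, at 9.02. Mmp1b, Mmp3, Mmp8 and Mmp20 are also highest on that array, by narrow margins.

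The neighbours also share letters before their start sites. Of the 76 genes, 46 matched the RefSeq promoter table (build GRCm38.p6), which left out Adamts4 and Mmp9. Windows of 250 bases before the annotated start were searched on both strands for 3 motifs. The AP-1 motif was TGACTCA, or TGAGTCA on the reverse strand. The TATA motif was TATAAA, with the reverse TTTATA. The GC box was GGGCGG, with the reverse CCGCCC. The AP-1 motif was present in 7 of the 10 genes of the chromosome 9 cluster and in 2 of the 36 other matched members, Adam19 and Adam29. It was present in 5.16% of the 27025 genes of the table. The TATA motif was found in 7 of the 10 cluster genes against 14.3% of all genes, and the GC box in 0 of 10 against 35.4%. The 7 cluster promoters with the AP-1 motif are shown from 100 bases before the start to the base before it, to show what these neighbouring genes have in common. Capitals mark AP-1 and TATA motifs, and all are written 5′ to 3′ on the strand of the gene, plus for all but Mmp1b. They lie at chr9:7272414-7272513 (Mmp13), chr9:7347274-7347373 (Mmp12), chr9:7388027-7388126 (Mmp1b), chr9:7445722-7445821 (Mmp3), chr9:7464041-7464140 (Mmp1a), chr9:7502242-7502341 (Mmp10) and chr9:7691990-7692089 (Mmp7).
Mmp13: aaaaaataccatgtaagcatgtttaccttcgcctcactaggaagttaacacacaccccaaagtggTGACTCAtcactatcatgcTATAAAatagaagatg
Mmp12: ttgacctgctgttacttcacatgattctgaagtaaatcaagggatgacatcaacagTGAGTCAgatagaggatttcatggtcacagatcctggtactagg
Mmp1b: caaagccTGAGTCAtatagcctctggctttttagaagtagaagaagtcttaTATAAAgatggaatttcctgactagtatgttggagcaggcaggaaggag
Mmp3: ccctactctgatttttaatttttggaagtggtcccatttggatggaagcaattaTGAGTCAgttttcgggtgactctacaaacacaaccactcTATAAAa
Mmp1a: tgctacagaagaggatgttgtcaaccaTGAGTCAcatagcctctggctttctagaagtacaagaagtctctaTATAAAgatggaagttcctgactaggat
Mmp10: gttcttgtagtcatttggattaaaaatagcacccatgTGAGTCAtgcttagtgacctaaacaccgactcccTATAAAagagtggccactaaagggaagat
Mmp7: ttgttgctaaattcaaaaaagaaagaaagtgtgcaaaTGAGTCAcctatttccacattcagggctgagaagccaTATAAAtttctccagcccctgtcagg

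In Mmp12 the AP-1 motif begins 44 bases before the start, and in Mmp3 46. A second annotated start of Mmp12 had no AP-1 match in its window. Of the 6 neighbours that share the motif, Mmp1b and Mmp3 peaked on the same array as Mmp12, and Mmp13, Mmp1a, Mmp10 and Mmp7 did not. A match of letters is a description of the window and does not show that a factor bound there. Mmp1a and Mmp1b are related genes, and whether their probes share transcripts was not examined.

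The 3 matched members that were lower on every transgenic array and above the array median had GC boxes. These 3 were picked after their values were seen. The GC box was found in 18 of the 36 matched members outside the cluster, these 3 among them. Mmp11, higher on every transgenic array, also has GC boxes, while Adam19, higher too, has none. Adam10, Adam15, Mmp24, Timp2 and Timp3, above the median with overlapping groups, have GC boxes, and Timp4 has none. Mmp10 and Mmp1a, also lower on every transgenic array but not above the median on all arrays, have the AP-1 and TATA motifs shown above. Adamts20, lower too and below the median, has GC boxes and no AP-1 match. The 3 lower members above the median, Adam17, Adamts1 and Mmp14, are shown for the 250 bases before the start. GC boxes and TATA motifs are in capitals. Adam17 has 1 GC box and no TATA match, Adamts1 has 3 GC boxes and a TATA motif 32 bases before the start, and Mmp14 has 2 GC boxes in a row. In none of the 3 was the AP-1 motif found. They lie at chr12:21373633-21373882 (Adam17), chr16:85803114-85803363 (Adamts1) and chr14:54431348-54431597 (Mmp14), on the minus, minus and plus strand.
Adam17: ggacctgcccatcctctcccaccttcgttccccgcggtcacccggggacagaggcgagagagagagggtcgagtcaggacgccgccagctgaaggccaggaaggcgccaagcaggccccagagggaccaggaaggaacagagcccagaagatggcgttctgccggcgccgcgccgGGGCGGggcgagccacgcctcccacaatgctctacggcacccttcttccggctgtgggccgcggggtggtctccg
Adamts1: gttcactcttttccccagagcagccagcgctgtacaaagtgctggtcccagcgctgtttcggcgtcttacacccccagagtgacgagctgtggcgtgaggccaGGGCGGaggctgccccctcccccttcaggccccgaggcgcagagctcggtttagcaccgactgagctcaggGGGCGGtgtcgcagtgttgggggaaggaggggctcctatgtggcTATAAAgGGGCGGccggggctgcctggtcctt
Mmp14: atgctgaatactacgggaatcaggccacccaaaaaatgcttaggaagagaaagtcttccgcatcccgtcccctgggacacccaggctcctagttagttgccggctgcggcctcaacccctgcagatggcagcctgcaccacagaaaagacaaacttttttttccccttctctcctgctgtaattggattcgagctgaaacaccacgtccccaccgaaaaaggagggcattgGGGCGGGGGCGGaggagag

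Further secreted enzymes complete the Mmp subfamily. Mmp10, a stromelysin of the cluster, lay lower in every transgenic array, at 5.28, 5.36 and 5.37 against 5.76, 5.46 and 5.61 (difference -0.27, SE 0.14, limma adjusted p 0.637). The groups of Mmp10 overlapped after quantile normalization and after median centring. Mmp11, a stromelysin activated inside the cell by furin, lay higher, at 6.13, 5.87 and 5.90 against 5.44, 5.83 and 5.59 (0.34, SE 0.16, limma adjusted p 0.600), whereas its second probe set differed by -0.21. Mmp28, an epilysin expressed in brain, differed by 0.28 (SE 0.15), Mmp19 by -0.11, Mmp8, the collagenase of neutrophils, by -0.13 and Mmp3 by -0.17. Each of these 4 overlapped between the groups.

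The 4 inhibitors overlapped between the groups, 2 with higher and 2 with lower means. Timp1, the inhibitor that injury and cytokines induce in astrocytes, stood at 5.67, 5.36 and 5.03 in the wild type. The transgenic values were 6.11, 5.43 and 5.52. Transgenic replicate 1 was the highest array, and the groups overlapped (difference 0.33, SE 0.24, 95% interval -0.24 to 0.90, limma adjusted p 0.743). Without transgenic replicate 1 the difference was 0.12, and with sex as a covariate 0.07. The gene lies on the X chromosome.

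Timp2, which both inhibits Mmp2 and helps Mmp14 to activate it, stood at 9.15, 9.12 and 8.85 against 8.86, 9.09 and 8.84. The difference of -0.11 had a 95% interval of -0.48 to 0.26. Timp3, the inhibitor bound to the matrix that also blocks Adam17 and aggrecanases, stood at 7.36, 7.23 and 7.24 in the wild type against 6.24, 7.47 and 7.07 in transgenic lesions. Its difference of -0.35 (SE 0.30) was -0.01 without transgenic replicate 1. Endothelial markers were also lowest on that array, at 5.70 against 6.04 to 6.35 elsewhere, and so were the 6 astrocyte markers, at 7.96 against 8.38 to 8.77. Their part in the Timp3 value was not tested.

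Timp4, the inhibitor abundant in brain and heart, stood at 6.75, 6.76 and 7.08 against 6.84, 7.33 and 7.29. Transgenic replicates 2 and 3 were above all wild type arrays and transgenic replicate 1 was among them (difference 0.29, SE 0.19, limma adjusted p 0.708). These 2 arrays and wild type replicate 3, the 3 highest for Timp4, were the 3 lowest in phagocyte markers, and the bearing of this on Timp4 was not tested.

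Genes that activate, assist or are cut by these enzymes were read from 9 lists with 57 measured genes. None passed the adjusted threshold in limma. At an unadjusted p under 0.05, 2 were higher and 2 lower, together 7.02% of the 57. The share was 8.87% of all probe sets and 6.98% of all genes with 1 probe set each, so that of the lists was near the latter. Groups did not overlap in 11.1% to 28.6% of the genes of a list, each list holding 4 to 9 measured genes. The share was 16.1% of all probe sets and 15.4% of all genes with 1 probe set each. In the group that guides maturation of ADAM10 and ADAM17, the tetraspanins Tspan15 and Tspan17, which escort ADAM10, differed in opposite directions. Tspan15 stood at 7.62, 7.06 and 7.38 against 7.00, 6.50 and 6.76 (-0.60, SE 0.20, limma adjusted p 0.492), and Tspan17 at 7.52, 7.85 and 7.63 against 8.47, 8.09 and 8.23 (0.59, SE 0.17, limma adjusted p 0.447). Neither gene's groups overlapped. The remaining 7 of that group, among them the iRhom genes Rhbdf1 (0.08) and Rhbdf2 (-0.02), which carry ADAM17 to the surface, overlapped.

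Of the proteoglycans cut by aggrecanases, versican (Vcan) stood at 6.58, 6.53 and 6.45 in the wild type against 5.48, 6.19 and 6.09 in transgenic lesions. The groups did not overlap (-0.60, SE 0.21, limma adjusted p 0.497). The 3 markers of oligodendrocyte precursors, cells that make versican, averaged 6.94 to 7.31 per wild type array and 6.50 to 6.89 per transgenic array, and their part in the Vcan values was not tested. Neurocan (Ncan), brevican (Bcan) and aggrecan (Acan) differed by -0.14, -0.07 and 0.14 and overlapped. Among 8 proteins shed by ADAM10 or ADAM17, App and Notch1 lay lower on every transgenic array, by -0.33 (SE 0.17) and -0.32 (SE 0.14), and the other 6 overlapped. The 2 are 25.0% of that short list, where groups did not overlap in 16.1% of all probe sets.

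In the plasminogen system, which activates several Mmp precursors, the 7 measured genes had a median difference of -0.18, and Plaur, the urokinase receptor, lay lower on every transgenic array (-0.22, SE 0.14). Serpini1, the neuronal inhibitor neuroserpin, lay higher (0.27, SE 0.15). The other inhibitors and clearance receptors had a median of 0.07 over 9 genes, with Reck, a membrane inhibitor of Mmp enzymes, at -0.19 and Lrp1, the receptor that takes up protease complexes, at -0.34. The 5 convertases and inducers had a median of -0.13, and the 6 ADAMTS-like proteins, which lack the protease part, had a median of -0.16. All 6 had lower means, though Adamtsl2 by only -0.001. All 5 astacins and meprins, a related group of metalloproteases, had lower means, with a median of -0.15. Of all 41345 probe sets, 21136 had a lower mean. Neither the ADAMTS-like nor the astacin list held a gene with an unadjusted p under 0.05 in limma. For all probe sets the median was -0.01, and single genes of these groups had standard errors of 0.13 to 0.39.

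The genes whose pattern over the 6 arrays was most like that of the 3 leading members were read as a description only. For Adamts4 they were Map4k4, Cald1 and Folh1 (Pearson's r of 0.99 each), for Mmp9 4930402F11Rik, Akap14 and Cldn17 (0.99 each) and for Timp1 Gla, Gm13944 and Gm4489 (0.99 each). In each case they are the best 3 of 23521 probe sets over the same 6 arrays, which also differ in markers of sex and region.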

How the data were processed

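Total RNA from each macrodissected lesion was labelled and hybridised to Affymetrix arrays. Per the submitters' processing notes, the authors used RMA and Affymetrix Expression Console; no version is stated. Deposited intensity values are linear, judging by array medians of 40.4 to 48.3, and were taken to log2 without a pseudocount. The number of arrays limits the precision. Genes were named through the platform annotation, using the 23521 of 41345 probe sets with 1 symbol, and 1814 probe sets with several symbols were not named.

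All 41345 probe sets were fitted with limma 3.58.1 in R 4.3.3 (lmFit and eBayes, 3 against 3 arrays, two-sided) and adjusted by Benjamini-Hochberg at a threshold of 0.05. Groups do not overlap where all transgenic arrays lie on one side of all wild type arrays. An exact permutation test of 3 against 3 cannot go below 0.1 and was not used. The fit was tested on simulated data with 100 changes of 1 log2 unit and 100 of 2. At an adjusted p under 0.05 in limma it recovered 28 and 95 of them, with 10 false calls. Genes named are those with known roles in brain or lesions plus the 4 with the smallest p in each subfamily. The members and lists were chosen with earlier results of these data known.

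Alternatives were quantile normalization, median centring, a filter on dim probe sets, no variance moderation, array weights, an intensity trend with robust eBayes, sex as a covariate, replicate number as a block, the mean of a gene's probe sets, and leaving out each array. Same-numbered arrays did not deviate together (correlations of 0.012, -0.098 and -0.068), so the numbers were not used as pairs.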

Additional observations from a re-analysis of the deposited data

How the results depend on the processing

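No member passed the adjusted threshold in limma under any alternative; with 3 arrays a group, the median 95% interval of a member reached 0.39 to either side. Over all 41345 probe sets, 3668 (8.87%) had an unadjusted p under 0.05, against 2243 of 20672 (10.9%) without dim probe sets, 10793 (26.1%) with array weights, 8604 (20.8%) with sex as a covariate and 2031 to 5168 (4.91% to 12.5%) when 1 array was left out. The adjusted count of 0 became 2611 with array weights, 1481 with sex and 0 to 335 when 1 array was left out. Array weights were 7.67 for transgenic replicate 3 and 0.28 and 0.26 for transgenic replicates 1 and 2. The weighted counts and medians thus rest mostly on transgenic replicate 3 for the transgenic group. In the fit with sex, transgenic replicate 2 alone stands for transgenic lesions without a male signal. Members with an unadjusted p under 0.05 numbered 2 of 76 (2.63%). They were 5 after quantile normalization (6.58%, all probe sets 9.15%), 7 without moderation (9.21%, 7.76%), 14 with array weights (18.4%, 26.1%), 3 with sex (3.95%, 20.8%), 3 after median centring (3.95%, 8.32%) and 1 with the replicate block (1.32%, 7.25%). Of the 14 with array weights, 7 were higher and 7 lower. Members at that level numbered 0 to 5 when 1 array was left out. They were 0 when wild type replicate 1 was dropped and 5 when wild type replicate 3 was (6.58%, 6.76%). Members that did not overlap numbered 13 (17.1%, all probe sets 16.1%), and 8 after median centring (10.5%, 15.1%; 6 of them shared) and 7 of 30 without dim probe sets (23.3%, 19.0%). They were 19 to 24 when 1 array was left out (25.0% to 31.6%, all probe sets 22.4% to 33.1%). The Mmp median of -0.12 was -0.06 after median centring, -0.06 without dim probe sets, -0.05 with array weights, -0.21 with sex and -0.15 to -0.07 leaving out 1 array. The Adam median of 0.06 was 0.12 after median centring, 0.0056 without dim probe sets, 0.11 with array weights, 0.013 with sex and 0.03 to 0.09 leaving out 1 array. The Adamts median of -0.09 was -0.032 after quantile normalization, -0.15 without dim probe sets, -0.04 after median centring and -0.11 to -0.06 leaving out 1 array. The Timp median of 0.09 was -0.01 with array weights and -0.02 to 0.09 leaving out 1 array, the lowest without wild type replicate 3.

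Leaving out 1 array moved the difference of 28 of the 37 named genes by over 1.5 times. Of the 37, 14 changed sign somewhere, and the cause was not tested. The largest differences among these were those of Timp3 (-0.35), Mmp8 (-0.13) and Timp2 (-0.11). Those of Mmp8 and Timp2 are close in size to the Mmp median of -0.12. After quantile normalization Mmp2 was 0.015, Mmp25 0.024 and Adam12 0.0095. After median centring Mmp2 was 0.0044, Mmp24 0.049, Mmp25 0.022 and Adam12 0.00076. With array weights Mmp24 was 0.15, and as the mean of its probe sets Adam15 was -0.045. With sex as a covariate Mmp16 was 0.30, Mmp24 0.19, Adam9 0.092, Timp2 0.053 and Timp3 0.19. Leaving out 1 array gave ranges of -0.19 to 0.068 for Mmp2, -0.34 to 0.088 for Mmp8, -0.25 to 0.16 for Mmp16, -0.061 to 0.21 for Mmp17, -0.10 to 0.18 for Mmp24, -0.15 to 0.039 for Mmp25, -0.19 to 0.00017 for Adam9, -0.20 to 0.067 for Adam12, -0.062 to 0.079 for Adam15, -0.087 to 0.28 for Adam22, -0.14 to 0.15 for Adam23 and -0.021 to 0.15 for Adamts5. With the replicate block the limma p was 0.0351 for Adamts4 and 0.0633 for Adam17.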
